A study of Mus musculus with 4 samples.

Results

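The nuclear genes of oxidative phosphorylation were followed across 4 Affymetrix mouse arrays, complex by complex. Members were the probe sets whose platform annotation gives a single gene symbol of the type Nduf, Sdh, Uqcr, Cox or Atp5 followed by a subunit letter or number, plus Cycs. This rule found 162 probe sets of 78 genes among the 45101 probe sets of the array. The members comprised 71 probe sets of 33 genes for complex I, 9 of 4 genes for complex II, 16 of 8 genes for complex III, 31 of 15 genes for complex IV and 31 of 17 genes for complex V, and 4 probe sets of Cycs. Ndufa4, named as a complex I gene, was counted with complex IV, where its protein is found.

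On 2 cDNA arrays, numbered 0 and 1, lay target amplified with a Nugen kit. On 2 aRNA arrays, also numbered 0 and 1, lay antisense RNA from amplification with T7 polymerase. All 4 started from total RNA, labelled as brain, hindbrain and spinal cord of mice, and the labels used here give neither strain, age, sex and number of animals nor the meaning of the numbers. Values are log2(intensity + 16) of the deposited signal. A step of 1 is close to a doubling of intensity for bright probe sets and more than a doubling for dim ones.

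Oxidative phosphorylation takes place at the inner mitochondrial membrane. Complex I (NADH dehydrogenase) and complex II (succinate dehydrogenase) pass electrons to ubiquinone, complex III passes them on to cytochrome c, and complex IV hands them to oxygen. Complexes I, III and IV pump protons, and complex V (ATP synthase) uses the resulting gradient to make ATP. Neurons draw most of their ATP from this pathway. Most subunits are encoded in the nucleus, many of them small proteins with abundant messenger RNA, and only these nuclear genes are described here.

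The 2% trimmed mean was 2500.02 on each array and the median intensity lay between 338 and 386. A probe set was taken as under background on an array when its intensity was below the 95th percentile of 27 control probe sets for Bacillus transcripts, which was 212 (array 0) and 249 (array 1) for cDNA, against 123 (array 0) and 126 (array 1) for aRNA. In a check of the label, 5 of 5 neuronal, 4 of 4 astrocyte and 3 of 3 measured oligodendrocyte markers were above background on all 4 arrays, as was Hoxa5, a gene of hindbrain and spinal cord position, while Hoxb5 and Hoxc6 each lay under it on 3 arrays. Both forebrain markers measured, Emx1 and Neurod2, were above it on all 4. Array aRNA 0 stood apart in sex-linked transcripts: Xist, the RNA of the inactive X chromosome, gave 11.94 and 12.51 on cDNA at probe set 1436936_s_at, against 8.55 on aRNA array 0 and 15.44 on aRNA array 1. Eif2s3y, a Y-linked gene, gave 7.92 and 4.75 on cDNA at 1417210_at, against 13.12 on aRNA array 0 and 6.79 on aRNA array 1. The same array was low in some glial markers. Gfap of astrocytes gave 11.77 and 12.90 on cDNA, against 9.19 on aRNA array 0 and 14.46 on aRNA array 1. Aqp4 was also lowest on aRNA array 0 (12.79). The astrocyte markers Slc1a2 (14.51) and Aldoc (16.30) were instead higher there than on cDNA (14.17 and 13.98 for Slc1a2, 15.26 and 15.71 for Aldoc). The summed intensity of 4 microglia markers was 21480 and 33450 on cDNA, against 8073 on aRNA array 0 and 52910 on aRNA array 1. Of these, only Cx3cr1 was higher on aRNA array 0 (9.83) than on both cDNA arrays (8.87 and 8.19). Of 4 meningeal fibroblast markers 2 were higher on cDNA (Col1a1 by 4.37, Col1a2 by 2.96) and 1 lower (Dcn, −2.23). The part of these cell types in the results was not tested, and counts without aRNA array 0 are given below. In bulk RNA, fewer cells of a type and less RNA per cell cannot be told apart.

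Oxidative phosphorylation probe sets were more often lower than higher on the cDNA arrays. Of the 141 members tested (74 genes), 49 were lower on cDNA (34.8%), 14 were higher (9.93%) and 78 were neither, by limma with a Benjamini-Hochberg adjusted p under 0.05 over all 22519 probe sets tested. Over the whole array 22.9% were lower and 20.2% higher. The share called in either direction, 44.7%, was close to the 43.2% of the array. The median difference (cDNA minus aRNA) of the tested members was −0.28, against −0.11 for all probe sets tested, and the quartiles of the members were −0.79 and 0.12. Their median absolute difference was 0.58, smaller than the 0.88 of the array. Nothing in the labels ties the arrays to separate animals, so the p-values measure only the spread between these arrays. Nor do the labels say that both preparations were made from the same RNA. Any difference in RNA source between the preparations is part of each difference given here, and its share was not tested. Calls of higher or lower on cDNA thus describe these arrays, not an effect of preparation on matched RNA. The source of the spread within a pair was not tested. In Xist and Eif2s3y, aRNA array 0 differed from aRNA array 1 and from both cDNA arrays, as given above. On cDNA arrays 0 and 1 the summed intensity was 68850 and 24640 for smooth muscle markers and 10250 and 4979 for endothelium markers. That of neuronal markers was 304400 and 345000.

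Among the settings given here, the share of lower calls lay under that of the array only without an intensity trend in the spread. In the others it lay above that of the array. Without an intensity trend in the spread, 26 members were lower (18.4%, against 19.8% of the array) and 8 higher (5.67%, against 17.9%). With the filter at the 75th percentile of the array, 51 of 126 members were lower (40.5%, against 31.6%) and 12 higher (9.52%, against 25.7%). This filter kept 11260 of the 22519 probe sets of the array, so most members lay among its brighter ones. With the brightest probe set of each gene alone, 25 of 74 were lower (33.8%, against 23.2%) and 7 higher (9.46%, against 22.2%). Without array aRNA 0, 40 members were lower (28.4%, against 15.5%) and 11 higher (7.8%, against 16.2%). Without array cDNA 1, 39 were lower (27.7%, against 20.1%) and 8 higher (5.67%, against 17.3%).

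**Figure D1:**
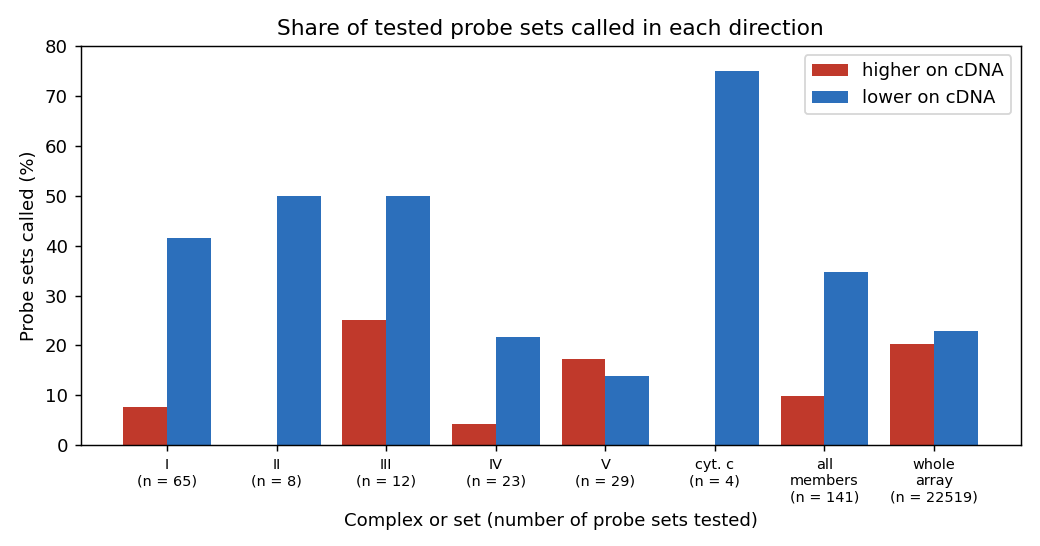
Percent of tested probe sets called higher (red) or lower (blue) on cDNA, against aRNA, for each complex, for all members and for the whole array, with the number of probe sets tested under each pair of bars. Lower calls outnumber higher ones in complexes I to IV and for cytochrome c, but not in complex V, where 17.2% were higher and 13.8% lower.

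The complexes differed in their counts, with no test between them. The median difference was −0.41 for complex I, −0.40 for complex II, −0.53 for complex III, −0.27 for complex IV and −0.14 for complex V. In complex III all 12 tested probe sets had cDNA and aRNA values that did not overlap, 8 of them with cDNA below, whereas over the array 73.8% did not overlap and 39.7% had cDNA below. Between the 2 arrays of a preparation, the median absolute difference of the members was 0.20 for cDNA and 0.20 for aRNA, against 0.37 and 0.33 for the array. The probe sets of the array were not matched to the members in brightness. Over the 141 tested members the correlation (Pearson's r) was 0.973 for the pair of cDNA arrays, 0.987 for the pair of aRNA arrays and 0.857 to 0.878 between preparations, given as a description across probe sets that share the same arrays.

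**Figure D2:**
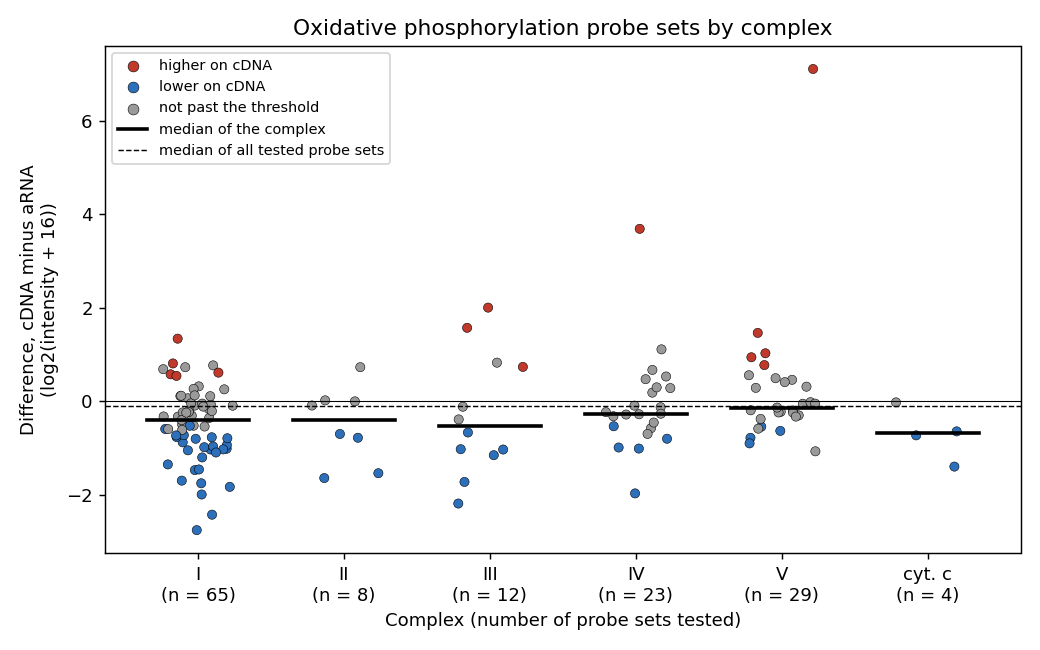
Difference (cDNA minus aRNA, log2 scale) of each tested probe set, by complex, with the median of each complex as a bar and that of all tested probe sets as a dashed line. Most points lie between −1 and 1, and 1 probe set of Atp5a1 stands alone at 7.11.

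Complex I had 27 of 65 tested probe sets lower on cDNA (41.5%, against 22.9% of the array) and 5 higher (7.69%, against 20.2%). Among its catalytic core, the iron-sulfur subunit gene Ndufs8 was lower at all 6 of its probe sets. At 1423907_a_at it gave 14.17 and 13.85 on the cDNA arrays, against 15.42 and 15.52 on the aRNA arrays, a difference of −1.46 ± 0.21 (SE; limma adjusted p = 0.00069). Every cDNA value lay under every aRNA value at each of the 6, as at 39.7% of all probe sets tested. The differences ran from −2.76 to −0.97. The probe set with −2.76, 1434212_at, was under background on cDNA array 1, where its fold is only a bound: at least 3.62-fold lower on cDNA. It passed the filter through its aRNA values (mean 7.80 on cDNA and 10.56 on aRNA), so its call is no separate support. This probe set lost its call without cDNA array 1 or either aRNA array.

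Ndufs1, the largest iron-sulfur subunit of the electron input module, gave 13.89 and 13.52 on cDNA and 15.39 and 14.97 on aRNA (−1.48, limma adjusted p = 0.00136). Ndufv1, which binds NADH and flavin, was lower at 1 of 3 probe sets (−0.77, adjusted p = 0.0166 in limma). That call was lost without cDNA array 1 or aRNA array 0, and its other probe sets gave −0.21 and −0.23. Its partner Ndufv2 was called at none of 3, with differences from −0.25 to 0.11, and the smallest in size, at 1428179_at, changed sign with median centring. Ndufs3 gave 15.82 and 15.53 on cDNA and 15.52 and 15.32 on aRNA, a difference of 0.25 that did not pass. The core of complex I was therefore uneven: 3 of the 6 measured core genes were called lower only (Ndufs8, Ndufs1, Ndufv1), Ndufs3 and Ndufv2 were not called, and Ndufs7 was called both ways.

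Among accessory subunits, which surround the core and serve assembly and stability, the lowest were Ndufb1, Ndufa1 and Ndufb3. Ndufb1 gave 8.82 and 8.88 on cDNA, against 11.27 and 11.29 on aRNA (−2.43 ± 0.38 SE, limma adjusted p = 0.00115). Ndufa1, an X-linked gene needed for assembly of the membrane arm, gave 14.70 and 14.56 on cDNA and 16.53 and 16.73 on aRNA (−1.9985 ± 0.18 SE, limma adjusted p = 8.77e-05). Ndufb3 gave 14.35 and 14.24 on cDNA and 16.08 and 16.17 on aRNA (−1.84, limma adjusted p = 0.000136). In each of the 3 the arrays of a preparation lay close together and far from those of the other preparation. This follows largely from their choice for large called differences.

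Higher values on cDNA were fewer and smaller in complex I. Ndufa13, also known as a cell death regulator (Grim19), gave 16.53 and 16.56 on cDNA and 15.91 and 16.03 on aRNA (0.57, limma adjusted p = 0.0197). Its call was lost when cDNA array 0, cDNA array 1 or aRNA array 0 was left out. The remaining higher calls belonged to Ndufb11, Ndufb2 and Ndufs7, each of which also had a probe set called lower. Without array aRNA 0, 1 higher call remained in complex I.

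Complex II had 4 of 8 tested probe sets lower by limma (50%, against 22.9% of the array) and 0 higher (0%, against 20.2%). Sdhb, its iron-sulfur subunit, gave 14.36 and 14.33 on cDNA, against 15.81 and 15.97 on aRNA (−1.54 ± 0.19 SE, limma adjusted p = 0.000325). Sdhc, a membrane anchor, was lower at both probe sets, by −1.65 at 1435986_x_at and −0.78 at 1448630_a_at, the second with a call that was lost without cDNA array 0, cDNA array 1 or aRNA array 0. Sdha, the flavoprotein that oxidises succinate, was lower at 1426688_at (14.77 and 14.75 on cDNA, 15.42 and 15.51 on aRNA, −0.70, limma adjusted p = 0.0137), a call lost without cDNA array 0, cDNA array 1 or aRNA array 1. Its probe set 1426689_s_at differed by −0.09 and 1433293_at by 0.02. Sdhd, the other membrane anchor, was called at neither of its probe sets (−0.01 and 0.73). Without cDNA array 0 or without cDNA array 1, 2 probe sets of complex II were lower.

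Complex III had 6 of 12 tested probe sets lower (50%, against 22.9% of the array) and 3 higher (25%, against 20.2%). Uqcr11, its smallest accessory subunit, gave 13.44 and 13.38 on cDNA and 15.43 and 15.78 on aRNA (−2.19 ± 0.21 SE, limma adjusted p = 0.000121). Uqcrc1, a core protein on the matrix side, gave 13.44 and 13.35 on cDNA and 14.98 and 15.27 on aRNA (−1.73, limma adjusted p = 0.000369). Uqcrfs1, the Rieske iron-sulfur protein that takes the first electron from ubiquinol, gave 14.46 and 14.15 on cDNA and 15.49 and 15.44 on aRNA (−1.16, limma adjusted p = 0.00201). Uqcrq, another small accessory subunit, was lower at 1430326_s_at (−1.04), its only tested probe set of 4. Uqcrc2, the second core protein, was lower at 1 of 2 probe sets (−1.03), with −0.12 at the other. Uqcrb, a ubiquinone-binding accessory subunit, was lower at 1455997_a_at (−0.67), a call lost without cDNA array 0 or aRNA array 1, and gave −0.39 at 1416337_at.

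In the same complex Uqcrh and Uqcr10 went the other way. Uqcrh, the acidic hinge protein that helps dock cytochrome c, gave 15.8242 and 15.9983 on cDNA and 14.55 and 14.14 on aRNA at 1452133_at (1.57 ± 0.21 SE, limma adjusted p = 0.000546). Its second probe set was also higher (0.73), a call lost without cDNA array 1. Uqcr10, a small accessory subunit, gave 14.34 and 14.12 on cDNA and 11.85 and 12.61 on aRNA at 1424364_a_at (2.0005 ± 0.30 SE, limma adjusted p = 0.000915). The second tested probe set of Uqcr10 differed by 0.82 and did not pass.

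**Figure D3:**
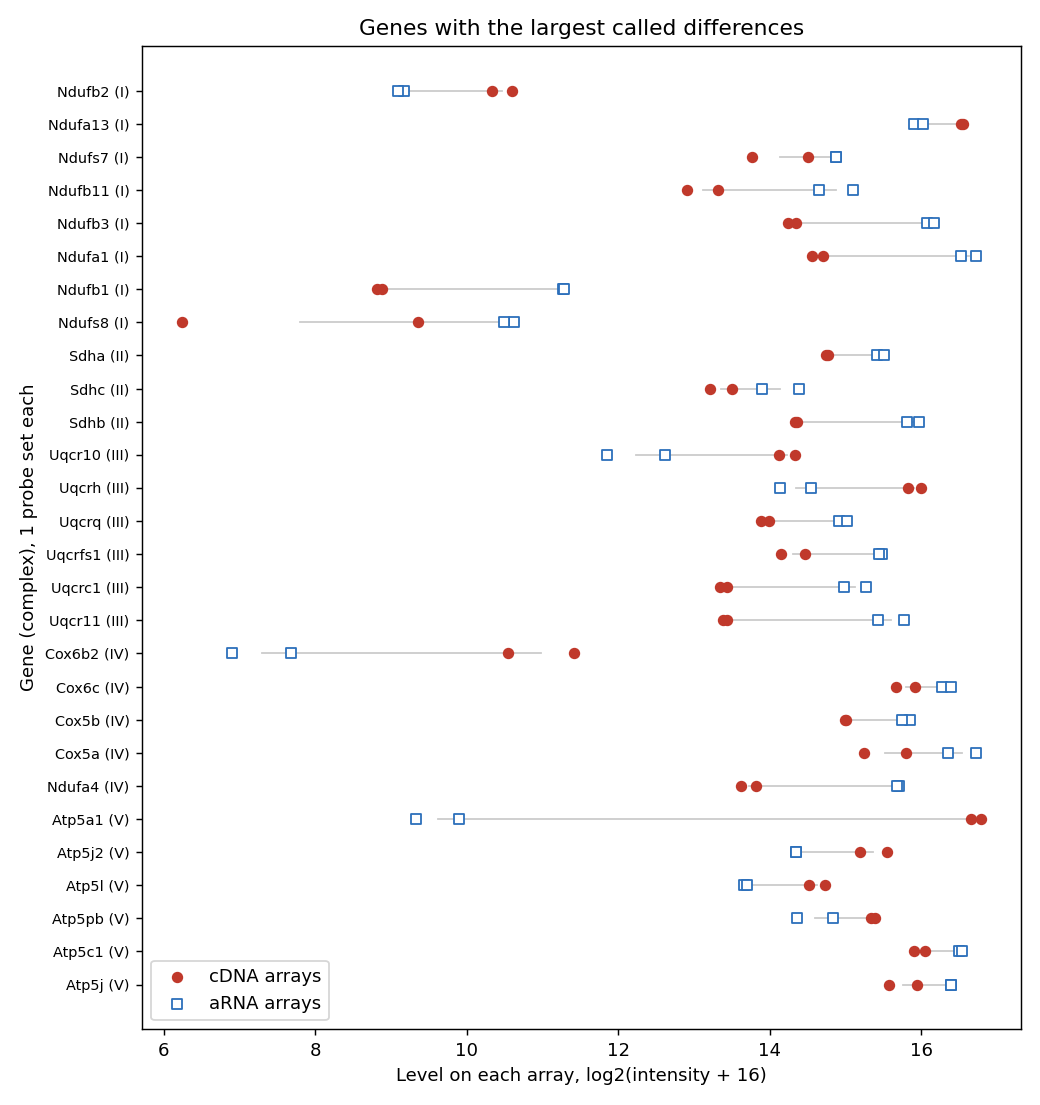
Level on each of the 4 arrays, as log2(intensity + 16), for up to 4 genes per complex and direction with the largest called differences, each at its called probe set with the largest difference, probe sets ending in _x_at left out (red circles cDNA, open blue squares aRNA; a grey line joins the means). Only called probe sets are drawn, so the lack of overlap between the 2 preparations follows largely from that choice. Over the array 73.8% of tested probe sets did not overlap. Ndufb11 and Ndufs7, chosen for their higher calls, are drawn at a probe set called lower. Those drawn for Ndufs8 and Cox6b2 passed the filter through 1 preparation only. Levels of different genes are not comparable since probe sets differ in affinity.

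RefSeq promoters of Uqcr11 and Uqcrh, which moved in opposite directions within complex III, are shown with that of Atp5j, which holds a pair of the motifs searched. Each is the 250 bases before the transcript start, 5′ to 3′, with motif matches in capitals (build GRCm38.p6, minus strand). Uqcr11 lies at chr10:80406822-80407071, Uqcrh at chr4:116075071-116075320 and Atp5j at chr16:84834977-84835226.
Uqcr11: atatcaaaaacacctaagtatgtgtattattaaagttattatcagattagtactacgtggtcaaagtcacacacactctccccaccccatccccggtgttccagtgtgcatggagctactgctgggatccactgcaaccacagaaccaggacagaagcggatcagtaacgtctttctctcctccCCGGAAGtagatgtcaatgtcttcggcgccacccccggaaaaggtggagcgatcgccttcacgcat
Uqcrh: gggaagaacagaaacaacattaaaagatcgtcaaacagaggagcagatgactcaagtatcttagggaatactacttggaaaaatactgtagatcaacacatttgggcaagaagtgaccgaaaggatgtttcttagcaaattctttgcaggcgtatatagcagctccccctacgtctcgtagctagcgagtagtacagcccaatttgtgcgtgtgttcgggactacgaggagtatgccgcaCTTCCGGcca
Atp5j: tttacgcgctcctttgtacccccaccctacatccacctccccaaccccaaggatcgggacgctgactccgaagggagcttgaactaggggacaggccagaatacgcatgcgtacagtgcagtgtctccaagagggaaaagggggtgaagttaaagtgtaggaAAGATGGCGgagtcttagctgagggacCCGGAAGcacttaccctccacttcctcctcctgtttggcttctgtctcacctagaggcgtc
The capitals mark the ETS core CCGGAAG (read on the other strand as CTTCCGG in Uqcrh) and, in Atp5j, the YY1 motif AAGATGGCG, both searched on either strand.

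Promoter sequences were found for 66 of the 78 member genes, and the search covered windows of 300 bases (250 before and 50 after each listed start). The ETS core was present in 17 member genes (25.8%), against 9.93% of all 27025 genes with a promoter in the table. The YY1 motif was present in 6 (9.09%, against 1.64%), and the palindromic core motif of NRF1, a factor of mitochondrial genes, in 4 (6.06%, against 1.07%). The table of all genes also holds noncoding genes, and the ETS and YY1 motifs can share bases where they adjoin. A match describes the letters of the window. Uqcr11, lower on cDNA, and Uqcrh, higher on cDNA, both held the ETS core.

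Complex IV had 5 of 23 tested probe sets lower (21.7%, near the 22.9% of the array) and 1 higher (4.35%, against 20.2%). The other 17 did not pass. Ndufa4 gave 13.63 and 13.82 on cDNA, against 15.71 and 15.69 on aRNA (−1.98 ± 0.20 SE, limma adjusted p = 0.000133), and had the lowest difference among the tested probe sets of the complex. Of the untested ones, Cox8c 1455167_at gave 7.79 and 5.30 on cDNA, both under background, and 10.41 and 9.56 on aRNA, at least 4.12-fold lower on cDNA. Cox5a, an accessory subunit that binds a thyroid hormone metabolite, was lower at 2 of 3 probe sets: at 1415933_a_at it gave 15.25 and 15.80 on cDNA and 16.36 and 16.73 on aRNA (−1.02, limma adjusted p = 0.00699). Cox5b, a zinc-binding subunit, was called at 1 of 5 probe sets (1416902_a_at, 15.00 and 15.00 on cDNA, 15.86 and 15.75 on aRNA, −0.81, limma adjusted p = 0.00635), and the other 4 ranged from −0.27 to 0.67. Cox6c was lower at 1 of 2 (−0.54, limma adjusted p = 0.0351), a call lost when any single array was left out. With median centring or quantile normalization 9 and 10 probe sets of complex IV were lower. Median centring also raised the share of lower calls over the array, to 26.9%.

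Several complex IV subunits have forms bound to a tissue, and these were read beside the common forms. The widely expressed Cox6a1, Cox6b1, Cox7a2 and Cox8a were above background on all 4 arrays at every tested probe set and were not called, with differences from −0.70 to 0.47. Cox6b2, known as the testis form, was higher on cDNA: 11.42 and 10.54 on cDNA, against 6.90 and 7.68 on aRNA, under background on aRNA array 0, so at least 11.95-fold higher. It passed the filter only through the cDNA arrays, where it is high (mean 10.98 on cDNA and 7.29 on aRNA), so its call is a description. Cox6a2, a heart and skeletal muscle form, gave 8.71 and 9.50 on cDNA and 8.26 and 8.90 on aRNA and did not pass. Cox7a1, also a muscle form, gave 11.02 and 10.51 on cDNA and 10.30 and 10.86 on aRNA, with overlapping groups. Cox7b2 lay under background on all 4 arrays.

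Cox8b, the muscle form of the smallest subunit, was not tested. It gave 9.59 and 8.02 on cDNA and 6.86 and 6.44 on aRNA, and lay above background on cDNA array 0 only. Of the 5 markers of skeletal or cardiac muscle, 0 were above background on all 4 arrays, with summed intensity of 415 and 618 on cDNA and 570 and 650 on aRNA. The 3 smooth muscle markers were all higher on cDNA (Tagln lay under background on both aRNA arrays), with summed intensity of 68850 and 24640 on cDNA and 3327 and 7482 on aRNA. Their part in the values of Cox6b2, Cox8b and Cox7a1 was not tested.

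In complex V, 20 of 29 tested probe sets did not pass, 5 were higher (17.2%) and 4 lower (13.8%). Over the array the shares were 20.2% higher and 22.9% lower. Atp5a1, the alpha subunit of the catalytic head, gave 16.66 and 16.79 on cDNA at 1420037_at, against 9.33 and 9.90 on aRNA (7.11 ± 0.27 SE, limma adjusted p = 4.34e-06). This was the largest difference of any member and 137.9-fold on the scale used. Its other probe sets did not share it: 1423111_at gave 15.42 and 15.32 on cDNA and 15.48 and 15.38 on aRNA (−0.06), and 1449710_s_at differed by −0.23, neither past the threshold. Atp5b, the beta subunit that carries the catalytic site, gave 15.62 and 15.81 on cDNA and 16.03 and 15.89 on aRNA (−0.24, limma adjusted p = 0.295). Atp5c1, the gamma subunit that turns inside the head, was lower at 1416058_s_at by −0.55 (limma adjusted p = 0.0245), a call lost when any single array was left out, and its second probe set gave −0.59 without passing.

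Subunits of the stalk and of the membrane part held most of the other higher calls of complex V. Atp5j2 gave 15.55 and 15.20 on cDNA at 1416269_at, against 14.35 and 14.35 on aRNA (1.02, limma adjusted p = 0.004). Its other 2 tested probe sets gave −0.25 and −0.05. Atp5l gave 14.52 and 14.72 on cDNA and 13.66 and 13.70 on aRNA (0.94, limma adjusted p = 0.00681), not past the threshold without cDNA array 1. Atp5pb, the peripheral stalk subunit b, was higher at 1426742_at (0.77, limma adjusted p = 0.019), a call lost without cDNA array 0, cDNA array 1 or aRNA array 1, and gave −0.33 at 1433562_s_at. Atp5j, coupling factor 6 of the stalk, gave 15.58 and 15.94 on cDNA and 16.40 and 16.40 on aRNA (−0.64, limma adjusted p = 0.0215), a call lost without cDNA array 0 or aRNA array 0. Atp5k, subunit e of the membrane part, was lower at 2 of 3 probe sets, both ending in _x_at (−0.90 and −0.79), and gave −0.14 at 1422525_at. Atp5o, which joins the stalk to the head, was higher at 1437164_x_at (1.46, limma adjusted p = 0.000451) and gave 0.31 at 1416278_a_at. Without cDNA array 1, 3 probe sets of complex V were higher, and without aRNA array 0, 2 were lower.

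Cycs, the cytochrome c that carries electrons between complexes III and IV, was lower at 3 of 4 probe sets. At 1456071_a_at it gave 14.97 and 15.36 on cDNA, against 16.49 and 16.64 on aRNA (−1.40, limma adjusted p = 0.000621). The differences at 1422483_a_at and 1422484_at were −0.65 and −0.73, and the fourth, 1445484_at, gave −0.03. Without cDNA array 0, 1 of the 4 was lower.

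Of 42 member genes with at least 2 tested probe sets, 16 (38.1%) had differences of both signs, against 55.2% of the 5034 such genes on the array. Their median range between highest and lowest difference was 0.76, against 1.53 for the array. The genes of the array were not matched to the members in brightness, and the part of brightness was not tested. Of the 11 member genes with at least 2 called probe sets, 3 (27.3%) had calls in opposite directions, against 45.4% of 1688 genes. Ndufb11, an X-linked accessory subunit, was higher at 1416056_a_at (0.81) and 1455911_x_at (0.61) but lower at 1416057_at (−1.76). Ndufb2 was higher at 1442658_at (1.34) and lower at 1416834_x_at (−0.73) and 1448483_a_at (−0.53). Ndufs7, an iron-sulfur core subunit, was higher at 1424313_a_at (0.54) and lower at 1451312_at (−0.74). The count of such genes was 1 when any single array was left out or no filter was set, 2 with the filter at the 75th percentile and 0 without an intensity trend.

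Values show the conflict of Ndufb11 directly. At 1416056_a_at it gave 16.76 and 16.85 on cDNA and 15.92 and 16.09 on aRNA, and at 1416057_at it gave 12.91 and 13.32 on cDNA and 15.10 and 14.65 on aRNA. Neither probe set had overlapping groups, as was the case for 73.8% of all probe sets tested. Ndufs8, Ndufb6, Sdhc and Uqcrh were called at all their tested probe sets in 1 direction. Their signs agree by that definition, while the size of the difference varied. This full agreement held in 4 of the 42 genes (9.52%, against 9.52% on the array), and 13 had no call at any probe set (31%, against 26.9%).

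**Figure D4:**
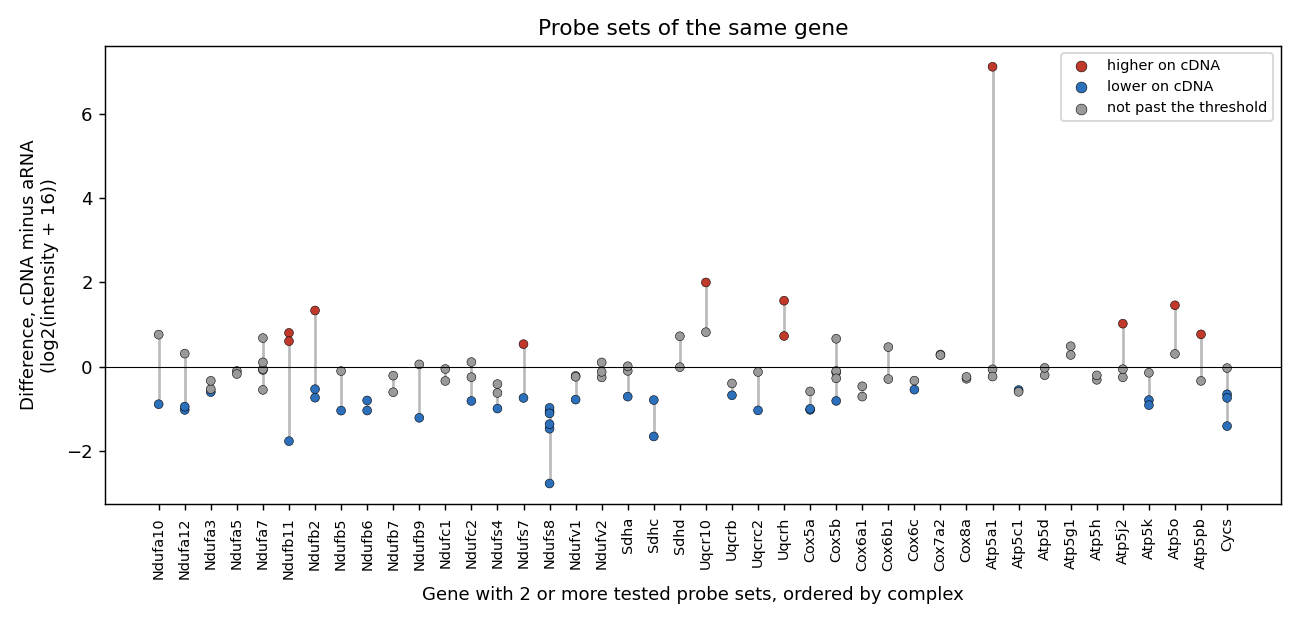
Difference (cDNA minus aRNA, log2 scale) at every tested probe set of the 42 member genes with at least 2 of them, ordered by complex; points of a gene are joined by a line and coloured by call. The widest line is that of Atp5a1, and Ndufb11, Ndufb2 and Ndufs7 hold red and blue points together.

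Probe set names mark how specific the design is: names ending in _s_at or _x_at can read several transcripts or unrelated sequence, and names ending in _a_at read several transcripts of a gene. Many oxidative phosphorylation genes have processed pseudogenes, so values of such probe sets may include other transcripts. Of 36 tested members ending in _a_at, 14 were lower (38.9%, against 27.3% of all tested probe sets with that ending) and 3 higher (8.33%, against 17.4%). Of 63 ending in plain _at, 23 were lower (36.5%, against 22%) and 7 higher (11.1%, against 19.8%). For _x_at, 9 of 25 were lower (36%, against 21.8%) and 2 higher (8%, against 27.6%). For _s_at, 3 of 17 were lower (17.6%, against 25.3%) and 2 higher (11.8%, against 22.6%).

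The 21 members that were not tested had a mean over the 4 arrays under the median of the array. All 21 lay under background on at least 1 array, and 5 lay under it on all 4. They belong to 17 genes, 4 of which had no tested probe set (Ndufb4, Cox7b2, Cox8b and Cox8c). Among the 141 tested members, 3 lay under background on an array. The counts above therefore cover the brighter members only.

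Other genes of the pathway, in lists chosen with earlier results of these data known, were read in the same fit. Subunits outside the naming rule had 5 of 9 tested probe sets lower (55.6%, against 22.9% of the array) and 2 higher (22.2%, against 20.2%). These 9 probe sets belong to 4 genes, and their median was −0.72. Among them were Cox4i1, a regulatory subunit of complex IV (−0.72, limma adjusted p = 0.00879), and Cyc1, cytochrome c1 of complex III (−0.60, limma adjusted p = 0.0228). Ndufab1, the mitochondrial acyl carrier protein, was lower by −0.84 at 1428159_s_at and higher by 4.39 at 1428160_at. Cox7a2l was lower at 1421772_a_at (−1.27) and 1432263_a_at (−1.18) and higher at 1432264_x_at (1.01). Of 56 tested probe sets of assembly factors, 15 were lower (26.8%) and 12 higher (21.4%), shares near those of the array. Uqcc2, of complex III assembly, was higher by 3.31 at 1 of 2 probe sets (−0.16 at the other) and Uqcc3, of the same pathway, lower, with a difference of −2.0039.

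Enzymes of the tricarboxylic acid cycle and pyruvate dehydrogenase feed electrons to the chain. Of their 34 tested probe sets 15 were lower (44.1%, against 22.9% of the array) and 2 higher (5.88%, against 20.2%). The median was −0.68. Suclg1, a succinyl-CoA synthetase subunit, was lower by −1.55 and Pdhb, of pyruvate dehydrogenase, by −1.19 at 1416090_at. The second probe set of Pdhb, 1448214_at, gave 0.64 and did not pass. The 2 higher calls both belonged to Idh3a, which was also called lower at 2 probe sets. Regulators of mitochondrial biogenesis had 5 of 24 lower (20.8%, near the 22.9% of the array) and 3 higher (12.5%, against 20.2%). Their median was −0.04. Ppargc1a, the coactivator of mitochondrial genes, was lower by −4.16 at 1456395_at and higher by 2.13 at 1437751_at. Its remaining probe sets gave 0.23, 0.69 and −0.99 and did not pass.

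Arrays numbered 1 were also set against those numbered 0, with the preparation in the model. By limma 0 of 141 members were called (lowest adjusted p = 0.612), and 14 (9.93%) had an unadjusted p under 0.05, against 5.86% of the array, on which 14 probe sets (0.0622%) were called. The difference (1 minus 0) was above 0 in both preparations for 52 members (36.9%, against 24.9% of the array) and below 0 in both for 22 (15.6%, against 26.6%). Cox6a1 was higher on number 1 in both preparations at both probe sets: at 1417417_a_at it gave 16.47 on cDNA array 1 and 15.91 on cDNA array 0, and 16.80 on aRNA array 1 and 16.50 on aRNA array 0 (limma adjusted p = 0.693). Atp5md, a small subunit that stabilises the ATP synthase dimer, was chosen after its values were seen. It gave 14.26 on cDNA array 1 and 16.12 on cDNA array 0, and 16.24 on aRNA array 1 and 16.29 on aRNA array 0, so cDNA array 1 was low and the other 3 arrays were alike.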

How the data were processed

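Transcript levels were measured on 4 Affymetrix mouse arrays, 2 per target preparation, grouped by the sample titles. The authors' deposited intensity values are linear, 1 per probe set and array; which software made them, the sources used here do not name. Their 2% trimmed mean is equal on all arrays, so they were kept as deposited, and a difference in total signal cannot be seen. Of 45037 probe sets other than 64 controls, the 22519 with a mean log2(intensity + 16) at or above the median (8.38) were tested.

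Gene symbols came from the platform annotation, in which 34945 probe sets had 1 symbol, 932 had more than 1 and 9160 had none. The preparation contrast was fitted on R 4.3.3 by limma 3.58.1 (eBayes with an intensity trend after lmFit, 2 residual degrees of freedom), adjusted over all tested probe sets by the Benjamini-Hochberg method at 0.05. The contrast of the numbers came from a model of number plus preparation (1 residual degree of freedom). An exact permutation test of 2 arrays against 2 cannot go below p = 0.333, so none was run. The scripts were tested on simulated data. Members, lists and named genes were chosen with earlier results of these data known. Named genes are up to 4 per complex and direction with the largest called difference at a probe set not ending in _x_at, core genes, tissue forms of complex IV, all Sdh genes, Cycs and genes called in opposite directions. Atp5k, Atp5md, Atp5o, Cox8c, Ndufb4, Ndufb6 and Uqcrb and the examples from other lists fall outside this rule and were chosen after their values were seen. A fold against a level under background is a bound against that level. Alternatives covered scaling, pseudocount, filter, spread model, probe set choice, single arrays and a replicate block. Plots used Python 3.11.15 and matplotlib 3.10.9. The number of arrays limits the precision.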

Additional observations from a re-analysis of the deposited data

How the results depend on the processing

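Across 14 alternatives no called member changed sign, and of the 63 calls 62 held with median centring, 63 with quantile normalization and 63 with a replicate block. Leaving out 1 array lost 12 to 21 of them and using no filter 14. Without an intensity trend 34 held (8 members higher and 26 lower), and with 1 probe set per gene 7 were higher and 25 lower, which follows from fewer probe sets tested. The median difference of the members was −0.43 with median centring, where that of the array became −0.25, −0.31 with quantile normalization, −0.25 without a filter, −0.32 with the filter at the 75th percentile, −0.31 without _x_at and _s_at probe sets and −0.26 with 1 probe set per gene; causes of the smaller moves were not tested. Leaving out 1 array gave 8 to 14 higher calls, 36 to 40 lower calls and a median from −0.33 to −0.26. With the number as a replicate block 17 members were higher and 56 lower, with no share of the array set beside them. The 2 preparations share only a number. Their 1 minus 0 differences correlated at 0.0412 over all 22519 tested probe sets and at 0.223 over the 141 members. Quantile normalization gave 1 member called between the numbers, Atp5md (−1.12, limma adjusted p = 0.00327), for a cause that was not tested. Of the named probe sets, 6 without a call changed sign. With median centring Ndufv2 1428179_at gave −0.0435 and Sdha 1433293_at −0.13, and with quantile normalization Sdha gave −0.13 and Sdhd 1428235_at 0.0029. With 1 array left out they ranged from −0.0345 to 0.2463 for Ndufv2, from −0.48 to 0.5097 for Sdha, from −0.1205 to 0.1091 for Sdhd, from −0.0988 to 0.4611 for Cox7a1 1418709_at, from −0.1601 to 0.052 for Atp5j2 1443495_at and from −0.3307 to 0.276 for Cycs 1445484_at. A probe set under background has no firm level.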
